A study of Mus musculus with 4 samples.

Results

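The genes described here encode fibronectin (Fn1), the enzyme that makes hyaluronan (Has2), the hyaluronan-binding proteoglycan versican (Vcan), 5 chains of fibrillar collagen (Col1a1, Col1a2, Col3a1, Col5a1, Col5a2), fibrillin-2 (Fbn2) and periostin (Postn). They are 10 of 18193 genes that had a probe set with a single symbol in the platform annotation, and every probe set with 1 of these symbols was taken, 27 in all. Their log2 intensities were read on 4 Affymetrix mouse MOE430 arrays, together with the difference of foregut endoderm minus mesoderm and ectoderm inside each of 2 experiments. The tissues came from ARC/s embryos of 4 to 5 somites at embryonic day 8.5 (a second label gives 3 to 5 somites), with 15 to 20 pieces pooled per sample. The 2 samples of foregut endoderm were taken at the anterior intestinal portal, and the 2 samples set against them combined heart mesoderm with mesoderm and ectoderm of the head. Per the treatment labels, tissues numbered 1 were dissected mechanically and those numbered 2 also digested with trypsin and pancreatin, so that experiment and dissection cannot be told apart. The design text mentions the digestion without setting the experiments apart. No sample carried an engineered allele or a drug treatment according to the labels.

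Interstitial matrix fills the space between epithelial sheets and the cells around them. Fibronectin is assembled into fibrils on cell surfaces through integrins and is needed in mouse embryos for heart and vessel development. Hyaluronan is a long sugar chain made at the plasma membrane. Together with versican it swells the cardiac jelly between the heart muscle and the endocardium, and mouse embryos without Has2 or without versican have severe heart defects. Collagens I, III and V form the fibrils of later connective tissue, in which collagen V starts and limits fibril growth. Fibrillin-2 builds microfibrils in the embryo, and periostin is a matrix protein of heart valves and of connective tissue.

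The arrays did not all follow their labels. Of 8 foregut endoderm markers, all 8 exceeded the other tissue 2-fold or more in endoderm in both experiments, with summed intensities of 5986 and 14055 on endoderm arrays 1 and 2 and of 524 and 1258 on mesoderm and ectoderm arrays 1 and 2. Heart muscle markers, of which 7 of 8 had a probe set, summed to 10965 and 302.3 in foregut endoderm 1 and 2, against 75.6 and 73545 in mesoderm and ectoderm 1 and 2. Heart muscle RNA was thus abundant in the endoderm sample of the first experiment and close to background in the sample of that experiment labelled as holding heart mesoderm. One description field calls foregut endoderm 2 ectoderm, but its title and tissue label say foregut endoderm, and Foxa1, a pioneer factor of gut endoderm, was at 10.82 log2 units there and at 10.92 in foregut endoderm 1. The tissue differences of Fn1, Has2, Vcan, the collagen chains and Fbn2 are therefore also given with arrays of the first experiment left out. Those of the partner genes in lists are not. In bulk tissue, fewer cells of a type and less RNA per cell cannot be told apart.

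Promoter sequences are shown for 3 genes whose tissue difference turned round between the experiments together, Vcan, Col5a1 and Col3a1. RefSeq windows of build GRCm38.p6 were found for 5 of the 10 genes (Vcan, Col1a2, Col3a1, Col5a1 and Postn). The other genes were Fn1, Has2, Col1a1, Col5a2 and Fbn2. Each window runs from 250 bases before to 50 bases after an annotated start, 5′ to 3′ as the table gives it, and capitals mark every match, on either strand, to CCAAT (the CCAAT box), GGGCGG (the GC box) or TATAAA (the TATA box). The windows are chr13:89742463-89742762 (minus strand) for Vcan, chr2:27886175-27886474 (plus strand) for Col5a1 and chr1:45311288-45311587 (plus strand) for Col3a1.
Vcan: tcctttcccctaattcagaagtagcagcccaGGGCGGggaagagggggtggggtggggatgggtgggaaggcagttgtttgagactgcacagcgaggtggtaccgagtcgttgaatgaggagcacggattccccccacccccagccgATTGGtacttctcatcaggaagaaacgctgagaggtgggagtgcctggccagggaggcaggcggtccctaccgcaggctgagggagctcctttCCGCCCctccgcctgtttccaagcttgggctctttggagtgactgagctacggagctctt
Col5a1: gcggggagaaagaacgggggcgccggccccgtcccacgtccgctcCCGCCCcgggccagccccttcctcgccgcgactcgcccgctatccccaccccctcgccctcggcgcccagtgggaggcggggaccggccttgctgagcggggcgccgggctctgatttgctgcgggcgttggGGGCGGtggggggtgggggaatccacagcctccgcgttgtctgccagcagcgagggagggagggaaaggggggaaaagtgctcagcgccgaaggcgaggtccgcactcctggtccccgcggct
Col3a1: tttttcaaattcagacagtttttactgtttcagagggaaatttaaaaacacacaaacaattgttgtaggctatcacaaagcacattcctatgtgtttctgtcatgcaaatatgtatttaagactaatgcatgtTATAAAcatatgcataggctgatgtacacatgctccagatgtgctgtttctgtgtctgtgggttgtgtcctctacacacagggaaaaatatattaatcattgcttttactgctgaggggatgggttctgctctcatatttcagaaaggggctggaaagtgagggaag

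The Vcan window held 1 CCAAT box and 2 GC boxes, that of Col5a1 2 GC boxes, and that of Col3a1 a single TATA box, which lies 117 bases before the start. No motif was common to all 3 windows. The matches did not overlap each other. Among 32544 distinct windows of 300 bases, 37.4% held the CCAAT box, 35.9% the GC box and 13.6% the TATA box, so matches of this kind are common. The share of G and C was 61.0% in Vcan, 75.0% in Col5a1 and 37.7% in Col3a1. These matches describe the letters of the windows and say nothing of which factors act there.

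Of the 27 probe sets, 15 had a log2 intensity above 5 on at least 2 arrays and were kept for tests, and they covered 8 genes. Col1a1 and Postn had none among them. Of the 12 others, 7 lay within 0.1 log2 units of the lowest value on each of the 4 arrays, called the floor here, and give no reading. Fibronectin and Has2 had higher values in foregut endoderm in either experiment. Versican and collagens III and V lay higher in endoderm in experiment 1 and lower in experiment 2. The probe sets of Col1a2 and of Fbn2 differed among themselves in their tissue differences, and Col1a1 and Postn were dim.

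**Figure D1:**
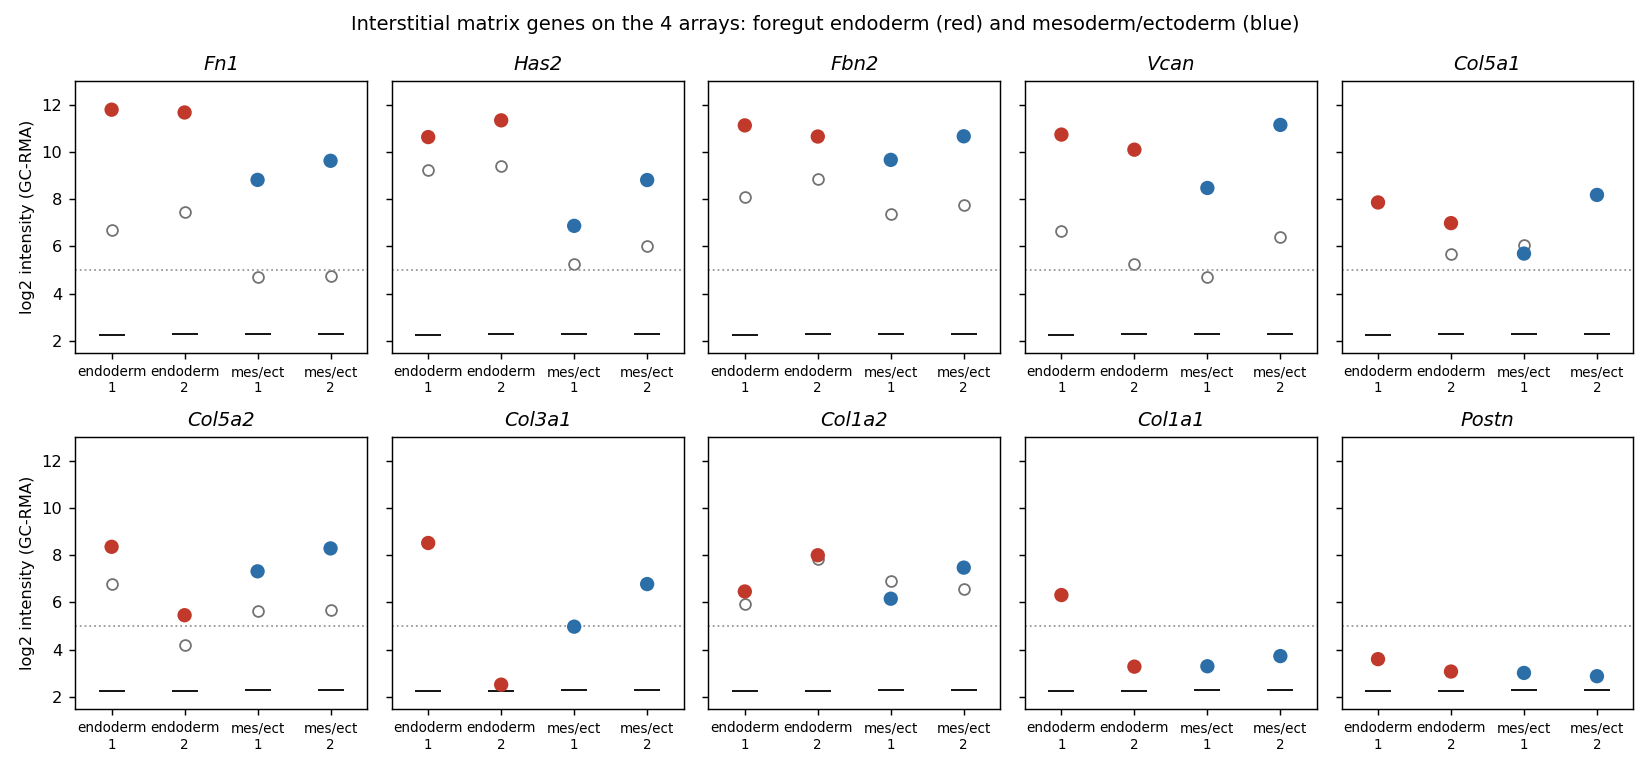
Log2 intensity of each gene (y axis) on the 2 foregut endoderm arrays (red) and the 2 mesoderm and ectoderm arrays (blue). Filled points are the probe set with the highest mean, open points its other kept probe sets, black bars the lowest value of each array and the dotted line the filter at 5. Both probe sets of Fn1 and of Has2 lie above the mesoderm and ectoderm arrays on both endoderm arrays, and Col3a1 runs from 8.52 to 2.52 between the endoderm arrays.

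Fn1 read 11.79 and 11.67 log2 units in foregut endoderm 1 and 2, against 8.81 and 9.62 in mesoderm and ectoderm 1 and 2 (probe set 1426642_at). Both endoderm values lay above both others, and they differed from each other by only -0.12 (second minus first). Endoderm exceeded the other tissue by 2.97 and then 2.05 in the 2 experiments, a mean of 2.51 ± 0.43 (SE, n = 2 arrays per tissue), or 5.69-fold. The second probe set of Fn1, 1437218_at, read 6.71 and 7.45 in endoderm and 4.69 and 4.74 in mesoderm and ectoderm, a mean difference of 2.37 ± 0.41 (SE). It passed the filter through the endoderm arrays alone. In limma's test over all 13288 kept probe sets, both had an adjusted p of 0.832.

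Has2, which extrudes hyaluronan as it makes it, read 10.63 and 11.33 log2 units in foregut endoderm 1 and 2, against 6.87 and 8.81 in mesoderm and ectoderm 1 and 2 (probe set 1449169_at). The groups did not overlap, although the values outside the endoderm lay 1.94 apart (second minus first). The differences were 3.76 and 2.53, with a mean of 3.14 ± 0.82 (SE), or 8.84-fold. The other probe set, 1418678_at, gave 9.25 and 9.39 in endoderm and 5.24 and 6.0 in mesoderm and ectoderm. Its mean difference of 3.70 ± 0.42 (SE), or 12.99-fold, was the widest of the kept probe sets described here. Limma's adjusted p was 1.00 for the first and 0.724 for the second of these probe sets.

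The direction for Fn1 and Has2 did not rest on 1 array. Leaving out 1 array at a time, the mean difference ran from 2.11 to 2.91 for Fn1 and from 2.17 to 4.11 for Has2. Without foregut endoderm 1, the array with heart muscle RNA, it was 2.45 for Fn1 and 3.498 for Has2. Without mesoderm and ectoderm 1, the array short of heart muscle RNA, it was 2.11 and 2.17. These are the only 2 genes of the 10 with kept probe sets at least 2-fold higher in endoderm in both experiments, which held for 4 of the 15 kept probe sets and for 3.57% of all kept probe sets. Endoderm markers were higher alongside them, with median differences of 3.13 and 3.52 in the first and second experiment.

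Vcan read 10.73 and 10.09 log2 units in foregut endoderm 1 and 2, against 8.47 and 11.14 in mesoderm and ectoderm 1 and 2 (probe set 1427256_at). Mesoderm and ectoderm held both the lowest and the highest value. Endoderm was 4.80-fold higher in experiment 1 (2.26 log2 units) and 2.07-fold lower in the second (-1.05 log2 units). The second kept probe set, 1421694_a_at, went the same ways, at 1.95 and -1.13. The mean of 0.61 ± 1.05 (SE) of the brighter probe set is smaller than its own error. It was 0.29 without foregut endoderm 1 and -0.73 without mesoderm and ectoderm 1. A further Vcan probe set below the filter, 1433043_at, read 6.26 and 2.86 in endoderm and 4.36 and 2.49 in mesoderm and ectoderm, high in the first experiment in both tissues and unlike the other two. Of its other 5 probe sets, 4 were at the floor throughout.

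Col5a1, a chain of collagen V, followed Vcan closely. It read 7.86 and 6.98 log2 units in foregut endoderm 1 and 2, against 5.69 and 8.18 in mesoderm and ectoderm 1 and 2 (probe set 1416740_at), so the tissues overlapped. Its differences were 2.17 and -1.19, with a mean of 0.49 ± 1.01 (SE). The mean was 0.05 without foregut endoderm 1 and -0.76 without mesoderm and ectoderm 1. A second probe set, 1434479_at, gave 1.82 and -2.52, a wider turn in the second experiment.

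Col5a2, the partner chain of collagen V, read 8.36 and 5.46 log2 units in foregut endoderm 1 and 2, against 7.32 and 8.29 in mesoderm and ectoderm 1 and 2 (probe set 1422437_at). Here foregut endoderm 2 stood below the other 3 arrays. The differences were 1.04 and -2.83, so endoderm was 7.11-fold lower in experiment 2. The mean of -0.89 ± 1.16 (SE) was -2.34 when foregut endoderm 1 was left out, 0.55 when foregut endoderm 2 was, and -1.38 when mesoderm and ectoderm 1 was. The other kept probe set, 1450625_at, gave 1.13 and -1.47.

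Col3a1, the chain of collagen III, spanned the widest range. It read 8.52 and 2.52 log2 units in foregut endoderm 1 and 2, against 4.98 and 6.78 in mesoderm and ectoderm 1 and 2 (probe set 1427883_a_at). Endoderm held the highest and the lowest value, and the lowest lay only 0.25 above the floor of its array, so the size of the second difference is limited by the bottom of the scale. Endoderm was 11.7-fold higher in experiment 1 (3.54 log2 units) and differed by -4.26 log2 units in the second. The mean of -0.36 ± 2.32 (SE) became -3.36 when foregut endoderm 1 was left out and 2.64 when foregut endoderm 2 was. It became -1.26 when mesoderm and ectoderm 1 was left out and 0.54 when array 2 of that tissue was. A single array therefore sets its sign. It passed the filter through 1 array of each tissue. The other Col3a1 probe set was at the floor on each array.

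**Figure D2:**
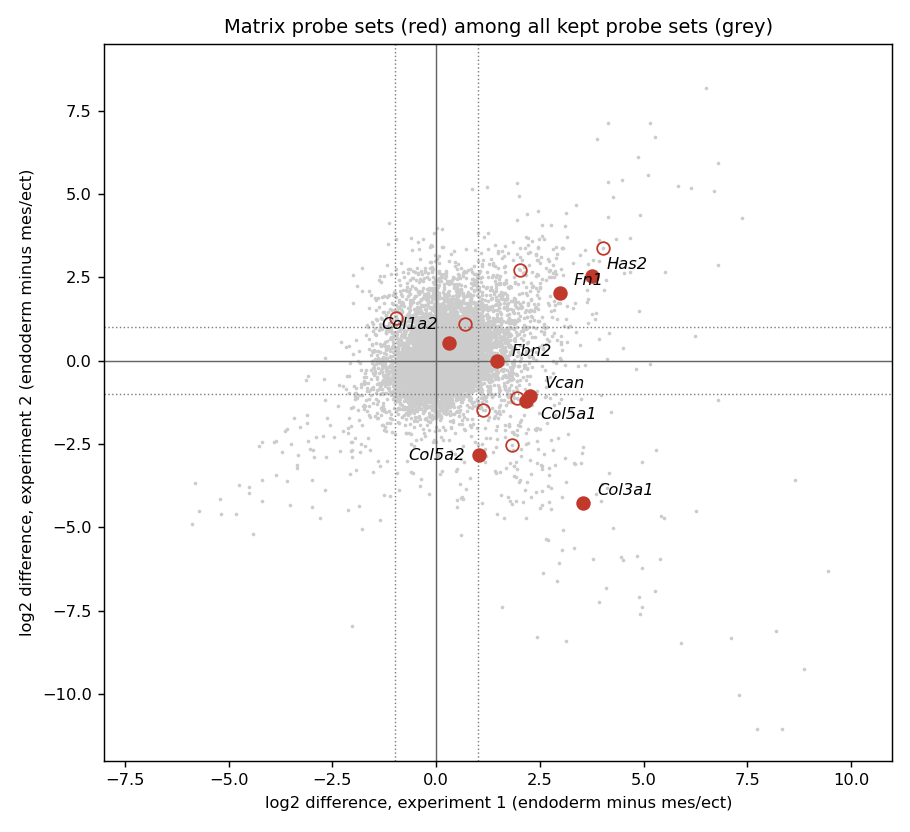
Log2 difference of foregut endoderm minus mesoderm and ectoderm in the first (x axis) and second experiment (y axis) for all 13288 kept probe sets (grey) and the 15 of the genes described here (red, filled for the brightest of a gene, open for others). Dotted lines mark 2-fold. Fn1 and Has2 lie at the upper right, and Vcan, Col5a1, Col5a2 and Col3a1 at the lower right.

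These 4 genes account for 7 kept probe sets that stood 2-fold or more above mesoderm and ectoderm in experiment 1 and 2-fold or more below in experiment 2, as 1.6% of all kept probe sets did, and 0 did the opposite (0.467%). In experiment 1, 12 of the 15 stood 2-fold or more above (11%) and 0 below (3.38%), and in experiment 2, 6 stood above (11.7%) and 7 below (6.89%). By sign alone 6 of the 15 were higher in both experiments (35.7%), 0 lower in both (23.8%), 8 higher and then lower (24.3%) and 1 lower and then higher (16.2%). The counts of 7, 8 and 12 include Col3a1, which passed the filter only through foregut endoderm 1 and mesoderm and ectoderm 2. Its turn was fixed by that, so these counts are a description and no support. Each experiment has 1 array of either tissue, so the difference between the experiments could not be tested. Many markers of other cell types also turned round. Median differences in the first and second experiment were 7.74 and -8.84 for 6 kept heart muscle markers, 2.64 and -2.85 for 4 of endothelium and endocardium, and 2.11 and -2.04 for 5 of head mesenchyme. By sign, 5 of the 6, 4 of the 4 and 3 of the 5 were higher in endoderm in experiment 1 and lower in experiment 2. Those 5 heart muscle and 4 endothelial markers passed the filter only through foregut endoderm 1 and mesoderm and ectoderm 2. Passing in that way fixes such a turn, so their counts and medians are a description and no support. The heart factor gene Nkx2-5 (1.79 and 0.75) and the mesenchyme factor genes Prrx1 (2.11 and 1.08) and Foxc1 (1.80 and 0.78) were higher both times, and are named after their values were seen. Summed intensities of the endothelial list were 569 and 68.4 in foregut endoderm 1 and 2, against 97.3 and 400.1 in mesoderm and ectoderm 1 and 2, with Pecam1 at the floor throughout. Those of head mesenchyme were 2000 and 289 in endoderm, against 491 and 791 outside it. Red blood cell markers, of which 2 of 4 were kept, summed to 2379 and 204.3 in endoderm and to 405 and 2441 outside it. By contrast, neural plate and neural crest markers had negative medians in both experiments, -2.89 and -2.26 for 6 genes and -2.13 and -4.49 for 3. Of the 6, 4 were 2-fold or more lower both times (1% of all kept probe sets). The others were Otx2 (-2.68 and 0.08) and Sox2 (-1.06 and -0.03), close to 0 in experiment 2. Pax6 and the crest gene Pax3 passed the filter only through the mesoderm and ectoderm arrays, where they are high. The part of these cell types in the values of versican and the collagens was not tested.

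Col1a2, a chain of collagen I, did not turn round in this way. It read 6.47 and 8.0 log2 units in foregut endoderm 1 and 2, against 6.16 and 7.48 in mesoderm and ectoderm 1 and 2 (probe set 1423110_at). Both tissues were higher in the second experiment, and within an experiment they differed by 0.31 and 0.52. The mean tissue difference was 0.41 ± 0.80 (SE), which became 1.18 with foregut endoderm 1 left out and -0.24 with mesoderm and ectoderm 1 left out. A second kept probe set, 1450857_a_at, gave -0.96 and 1.28, so the probe sets of Col1a2 disagree on the first experiment. The other chain of collagen I, Col1a1, read 6.32 in foregut endoderm 1 and 3.28 in foregut endoderm 2, against 3.30 and 3.73 in mesoderm and ectoderm 1 and 2 (probe set 1455494_at). It was above the filter on foregut endoderm 1 alone and was therefore not among the tested probe sets. Without that array its mean difference of 1.28 became -0.23.

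Fbn2 was well above the floor on all 4 arrays. Its brighter probe set, 1454830_at, read 11.12 and 10.65 log2 units in foregut endoderm 1 and 2, against 9.66 and 10.66 in mesoderm and ectoderm 1 and 2. The tissues differed by 1.46 and then by -0.01 in the 2 experiments, a mean of 0.73 ± 0.51 (SE). The mean was 0.49 without foregut endoderm 1 and 0.23 without mesoderm and ectoderm 1. The other probe set, 1422831_at, read 8.07 and 8.86 in endoderm and 7.38 and 7.76 outside it, without overlap, and its differences were 0.69 and 1.10. Endoderm arrays lay above both others for this probe set and for the 4 of Fn1 and Has2, which makes 5 of the 15 kept probe sets, while 16.4% of all kept probe sets were so arranged. The reverse arrangement was seen for 0 of the 15 and for 9.05% of all. Postn, the least bright, read 3.60 and 3.08 in endoderm and 3.02 and 2.88 outside it (probe set 1423606_at). It stayed 0.59 to 1.35 log2 units above the floor and passed the filter on no array.

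Over all kept probe sets limma called 0 of 13288 between the tissues, hence 0 of the 15 described here, and 0% of the background. Adjusted p ran from 0.724 to 1.00 among the 15. At an unadjusted p under 0.05 there were 4, namely both probe sets of Fn1 and of Has2, against 3.76% of all kept probe sets. All 4 were higher in endoderm (2.97% of all) and 0 lower (0.79%). With the replicate number as a block, 5 of the 15 had an unadjusted p under 0.05 in limma (9.98% of all), and 0 passed after adjustment. The counts at an unadjusted p, at 2-fold and without overlap all include the Fn1 probe set 1437218_at, which passed the filter only where it is high, so they are a description and no support. An exact permutation test of 2 arrays against 2 cannot give a two-sided p below 0.333. The labels do not say whether samples of 1 tissue came from separate litters, and p-values measure the spread between these samples only.

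Between the experiments, the second had 1 kept probe set of these genes at least 2-fold higher in both tissues, that of Col1a2, as did 11.4% of all kept probe sets, and 0 at least 2-fold lower in both (7.19%). Col1a2 read 8.0 in the second and 6.47 in the first experiment in endoderm, and 7.48 and 6.16 in mesoderm and ectoderm (1423110_at), a mean difference of 1.43 log2 units. The other kept Col1a2 probe set, 1450857_a_at, gave 1.91 in endoderm but -0.34 outside it, and averaging all probe sets of the gene lowered the difference to 0.74. With tissue as a term, limma called 0 of 13288 probe sets here too, and the adjusted p of Col1a2 was 0.102. It was the 1 of the 15 with an unadjusted p under 0.05, against 30.1% of all kept probe sets (16.3% higher and 13.7% lower in the second).

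For the brightest probe sets of Vcan, Col5a1, Col5a2 and Col3a1 the tissues moved in opposite directions between the experiments. In foregut endoderm the second minus the first sample gave -6.0 log2 units for Col3a1, -2.90 for Col5a2, -0.88 for Col5a1 and -0.64 for Vcan. In mesoderm and ectoderm it was positive for these genes, at 1.80, 0.97, 2.48 and 2.67. These are values of the brightest probe sets. The second kept probe set of Col5a1, 1434479_at, gave -2.19 in endoderm and 2.15 outside it, and that of Vcan, 1421694_a_at, -1.40 and 1.68. That of Col5a2, 1450625_at, gave -2.55 in endoderm but only 0.05 outside it. In endoderm 5 of the 15 kept probe sets were at least 2-fold lower in the second experiment (14.2% of all kept probe sets) and 2 at least 2-fold higher (15.1%). Outside it 7 were at least 2-fold higher (21.1%) and 0 lower (15.8%). The counts of 5 and 7 include Col3a1, which passed the filter only through foregut endoderm 1 and mesoderm and ectoderm 2. The direction of its moves was fixed by that. Fn1 moved by -0.12 in endoderm and 0.81 outside it, and Has2 by 0.71 and 1.94. Their other probe sets moved by 0.74 and 0.05 (Fn1, 1437218_at) and by 0.14 and 0.76 (Has2, 1418678_at). Postn gave -0.53 in endoderm and -0.14 outside it.

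**Figure D3:**
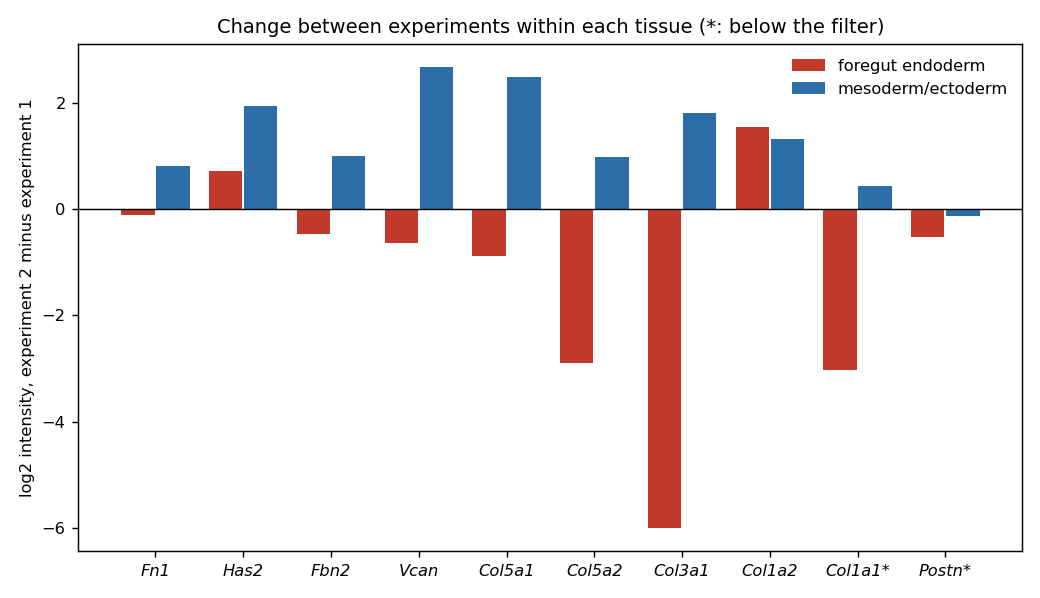
Log2 intensity of the second minus the first experiment (y axis) for the brightest probe set of each gene, with foregut endoderm in red beside mesoderm and ectoderm in blue, 1 array per experiment and tissue. Asterisks mark genes below the filter. Bars of Vcan, Col5a1, Col5a2 and Col3a1 point down in endoderm and up outside it, and both bars of Col1a2 point up.

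Likeness was measured as the Euclidean distance between log2 values over the 4 arrays, each gene centred on its own mean, among 7796 other genes. It is a description over 4 values. Vcan and Col5a1 were each other's nearest gene, at a distance of 0.25. Nearest to Col5a2 were Marveld1 (0.11), the lymphatic and endothelial receptor Flt4 (0.55) and Lhfp (0.58). Nearest to Col3a1 were the endothelial matrix gene Mmrn2 (1.04), the mesenchymal factor Twist1 (1.07) and the activin antagonist Fst (1.24), all at wider distances. Fn1 had Tchh (0.33), Ubash3b (0.37) and the endoderm factor Sox17 (0.40) nearest to it. Has2 had the histone deacetylase gene Hdac11 (0.11), Ypel2 (0.28) and Frmd4b (0.35). Next to Vcan after Col5a1 stood Gpx3 (0.31) and Pfkp (0.32), and next to Col5a1 after Vcan stood Pfkp (0.29) and Gpd1l (0.36). Those of Col1a2 were Hmces, Chd8 and Cgrrf1, and those of Fbn2 were Abhd12, Mmd and Kat2b, at 0.12 to 0.17.

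Partners of these genes were read in 6 lists with 102 entries, of which 93 had a probe set and 48 were kept. None of the 48 passed limma's test (adjusted p from 0.724 to 1.00), and 6 had an unadjusted p under 0.05 (3.76% of all kept probe sets). In both experiments 9 stood 2-fold or more higher in endoderm and 0 stood 2-fold or more lower, against 3.57% and 1% of all kept probe sets. A further 4 stood 2-fold or more higher in experiment 1 and 2-fold or more lower in experiment 2 (1.6%), namely Itga8, Hapln1, Pcolce and Tgfbi, which were picked out after their values were seen. By sign, 28 of the 48 were higher in endoderm both times (35.7% of all kept probe sets), 3 lower both times (23.8%), 14 higher and then lower (24.3%) and 3 lower and then higher (16.2%). The counts of 6, 9 and 28 include Col11a1, which passed the filter only through the endoderm arrays, where it is high. Those of 4 and 14 include Itga8, and that of 14 also Adam19. Both genes passed only through foregut endoderm 1 and mesoderm and ectoderm 2, which fixes a turn of this kind. All these counts are therefore a description and no support. The genes named below have the smallest p of their list, which favours those alike in both experiments. Medians over the 48 were 1.22 and 0.26 in the first and second experiment, against 0.12 and 0.03 over all kept probe sets.

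Among fibronectin receptors and adhesion proteins, 12 of 17 genes were kept. In both experiments 7 of the 12 were higher in endoderm (35.7% of all kept probe sets). Medians were 1.43 and 0.47. Itgb5, an integrin chain that pairs with the αv chain, read 9.16 and 9.64 log2 units in endoderm and 6.93 and 8.16 outside it, a difference of 1.85 ± 0.57 (SE). The αv chain itself, Itgav, differed by 1.36, with 1.46 and 1.27 in the experiments. Itgb1, the chain shared by the main fibronectin receptors, differed by 1.36 (1.95 and 0.77), and the adaptor Parva by 1.19 (1.43 and 0.95). The arrays gave no reading above the filter for Itga5, the chain that defines the classical fibronectin receptor, at 2.69 and 3.09 in endoderm and 2.72 and 2.72 outside it.

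Of the genes for hyaluronan and versican turnover, 10 of 18 were kept. In endoderm 5 of the 10 were higher both times (35.7% of all kept probe sets) and 2 lower both times (23.8%). The median differences were 0.25 and 0.04. Has1 and Has3, the other hyaluronan synthases, were at the floor on all 4 arrays. The hyaluronan-degrading surface protein gene Cemip2 differed by 1.15 ± 0.41 (SE), at 1.69 and 0.62. The versican-cleaving proteases Adamts9 and Adamts20 differed by 0.75 and 0.48. Ugdh, which makes the sugar nucleotide for hyaluronan, read 10.31 and 9.55 in endoderm and 10.59 and 10.34 outside it, a difference of -0.53 ± 0.42 (SE). Hapln1, the link protein of hyaluronan and versican, was chosen after its values were seen. It read 9.41 and 5.37 in endoderm and 7.57 and 9.68 outside it, so that, like Vcan, its differences of 1.84 and -4.31 pointed opposite ways.

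For collagen processing, 10 of 18 genes were kept, 6 of them higher in endoderm both times (35.7% of all kept probe sets). The median differences were 1.31 and 0.15. Plod2, which hydroxylates lysines of collagen, read 7.99 and 8.97 in endoderm and 5.89 and 7.20 outside it, a difference of 1.93 ± 0.67 (SE). The procollagen protease Bmp1 differed by 0.89, the collagen chaperone Serpinh1 by 0.77 and the collagen-binding protein Sparc by 0.70. Only 4 of 15 microfibril and elastic fibre genes were kept. Ltbp1, a latent TGF-beta binding protein, differed by 1.40 (1.02 and 1.78) and Ltbp3 by 1.14 (-0.07 and 2.35), while Fbln1 (1.19 and -0.29) and Mfap2 (0.54 and -0.08) pointed opposite ways. Mfap2 read 8.11 in the second and 4.23 in the first experiment in endoderm, and 8.19 and 3.70 outside it, so that the experiments differed far more than the tissues.

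Other interstitial matrix genes were mostly dim, with 6 of 20 kept. Of these 6, 4 were higher in endoderm in both experiments (35.7% of all kept probe sets). Col11a1, a minor fibrillar collagen chain, read 6.42 and 7.28 in endoderm and 4.21 and 4.05 outside it, a difference of 2.72 ± 0.44 (SE) with a limma adjusted p of 0.832. It passed the filter through the endoderm arrays alone. The cellular communication network genes Ccn1 and Ccn2, which encode secreted integrin-binding proteins, differed by 2.34 (2.51 and 2.17) and 1.27 (1.49 and 1.04), and the cartilage and notochord collagen gene Col2a1 by 1.19 (2.23 and 0.15). Of the matrix proteases and inhibitors, 6 of 14 were kept and 5 were higher in endoderm in both experiments (35.7%). Plat, the tissue plasminogen activator, read 9.03 and 9.16 in endoderm and 6.601 and 6.14 outside it, a difference of 2.73 ± 0.35 (SE) with a limma adjusted p of 0.724. Differences were 1.62 for the protease inhibitor Reck, 1.14 for the membrane protease Mmp14 and 0.73 for the gelatinase Mmp2.

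**Figure D4:**
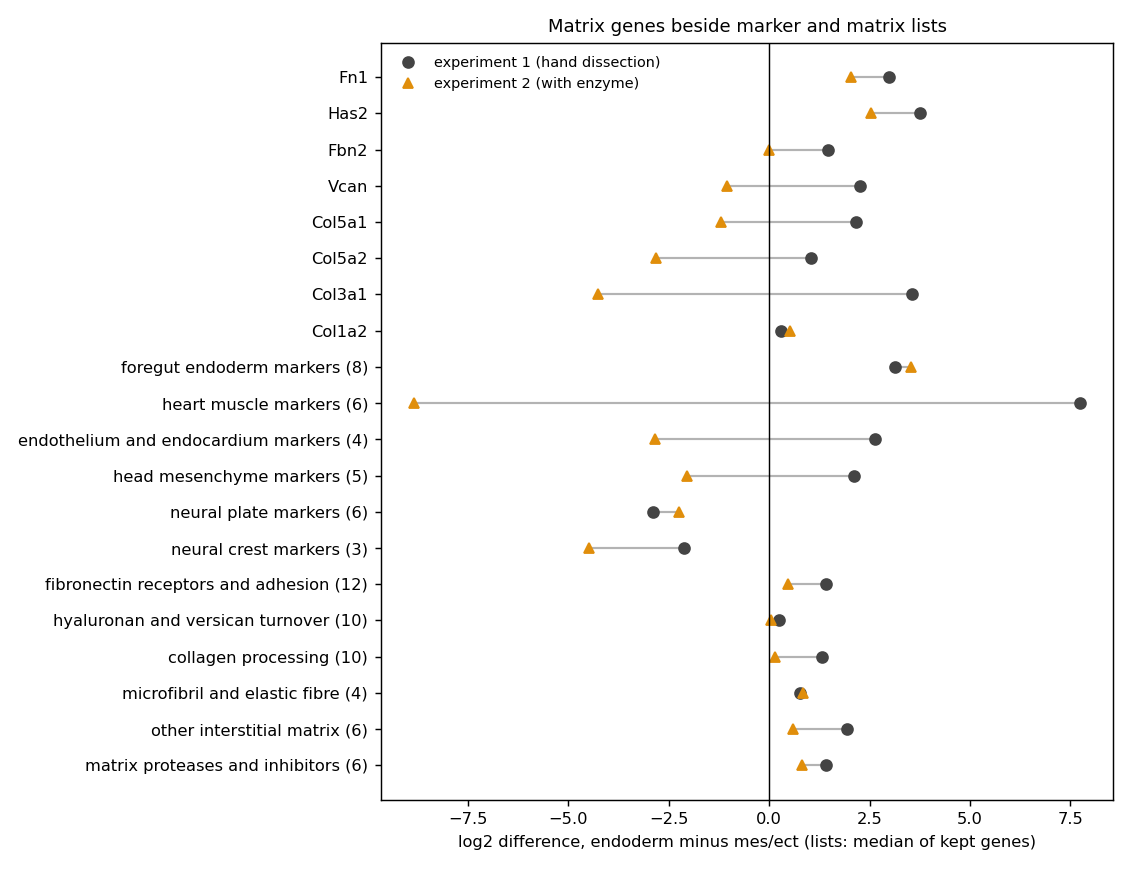
Log2 difference of foregut endoderm minus mesoderm and ectoderm in the first (circles) and second experiment (triangles), for the 8 genes with a kept probe set and as the median of kept genes for marker and matrix lists (their number in brackets). Fn1 and Has2 have both points right of 0, as do the foregut endoderm markers, whereas points of Vcan, Col5a1, Col5a2, Col3a1 and the heart, endothelial and mesenchyme markers lie on opposite sides.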

How the data were processed

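Per the labels' protocols, pooled RNA went through 2 rounds of amplification with biotin labelling before hybridization, for 4 arrays. The authors deposited linear intensity values per probe set, for which the series' design text names GenePattern and GC-RMA and the submitters' processing notes name RMA. The settings of that step, and its version, were not stated there. The linear scale was read from the values (4.75 to 75547, array medians 5.71 to 6.14). Of 45101 probe sets 64 were controls and were left out. Genes were named through GEO's platform annotation, which gave 34945 of the others 1 symbol.

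Log2 was taken without an offset. Probe sets above 5 on at least 2 arrays were kept (13288). Between 12470 and 13033 probe sets per array lay above 5, and the small number of arrays limits precision. Each gene stands by the probe set with the highest mean. The tissue comparison used lmFit and eBayes of limma 3.58.1 under R 4.3.3 (two-sided, Benjamini-Hochberg over all kept probe sets, threshold 0.05), and experiments in the same way with tissue as a term. The limma script was tested on simulated data. SE are from these fits, and the tissue fit leaves the pairing of samples out. With the replicate block, the SE was 0.23 in place of 0.80 for Col1a2 (1423110_at) and 0.42 in place of 0.82 for Has2 (1449169_at). It was wider for others, such as 0.93 in place of 0.86 for Vcan (1421694_a_at). That fit has 1 residual degree of freedom. The sample numbers pair the samples, as the labels' protocols tie each number to 1 way of dissection. Deviations from the tissue means of same-numbered samples correlated across probe sets at r = 0.56. The alternatives were filters, scaling, an offset, the replicate block, leaving out each array and averaging probe sets.

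The genes, lists and tests were chosen with earlier results of these data known. All 10 genes are named, and up to 4 kept genes with the smallest p from each list. The 3 nearest genes are named for each gene with a kept probe set. Low values near an array's floor make differences bounds in size.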

Additional observations from a re-analysis of the deposited data

Results flagged for a closer look

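Tissue differences of 5 of the 8 genes with a kept probe set had opposite signs in the 2 experiments (by sign, 24.3% of all kept probe sets were higher and then lower in endoderm and 16.2% lower and then higher), with 1 array of either tissue in each, so that the contrast between the experiments was not tested. The difference in the first experiment exceeded that in the second by 7.80 log2 units for Col3a1, 3.87 for Col5a2, 3.36 for Col5a1 and 3.31 for Vcan. It did so by 1.47 for Fbn2, where the second difference was only -0.01. Of the list genes named by rule, Fbln1 stood apart in this way by 1.49, Mfap2 by 0.61 and Ltbp3 by -2.43, with the first difference of Ltbp3 close to 0. The opposite signs of Col3a1 were fixed by the filter, which it passed only through foregut endoderm 1 and mesoderm and ectoderm 2.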

How the results depend on the processing

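Calls between the tissues numbered 0 under every alternative run, the replicate block included, with 206 to 1326 probe sets at an unadjusted p under 0.05. With the replicate block limma's adjusted p of the 15 kept probe sets ran from 0.351 to 0.973, and it changed no call. Between the experiments 0 probe sets passed, but quantile normalization gave 878 and median centring 423, none of them among the brightest probe sets of these genes. The cause was not tested. Leaving out an array there leaves no residual degrees of freedom, so no count was possible. Probe sets with a 2-fold difference of one sign in either experiment alike numbered 607 (474 higher and 133 lower in endoderm). Scaling moved that split to 367 and 194 (quantile) and 347 and 211 (median centring), and the median difference of all kept probe sets to -0.02 and -0.08, against 0.10 as deposited. With an array left out, where the lone array serves both experiments, they numbered 820 to 1622 (954 without foregut endoderm 1, 1622 without mesoderm and ectoderm 1, 1143 without mesoderm and ectoderm 2). Signs for Fn1, Has2, Fbn2 and Postn were kept under each tissue alternative run. An offset of 16 turned Col3a1 to 0.24, and it shrinks low values by construction. Leaving out each array in turn gave tissue differences of -0.73 to 1.94 for Vcan, -0.35 to 1.18 for Col1a2, -3.36 to 2.64 for Col3a1, -0.76 to 1.73 for Col5a1, -2.34 to 0.55 for Col5a2 and -0.23 to 2.80 for Col1a1. Between the experiments, where each such value rests on 1 tissue, it gave -0.12 to 0.81 for Fn1, -0.64 to 2.67 for Vcan, -3.03 to 0.43 for Col1a1, -6.0 to 1.80 for Col3a1, -0.88 to 2.48 for Col5a1, -2.90 to 0.97 for Col5a2 and -0.47 to 1.00 for Fbn2. Averaging all probe sets turned the experiment difference of Vcan to -0.21, against 1.02 for the brightest, as its dim probe sets then enter. It gave tissue differences of 0.04 for Col5a1, 0.28 for Vcan, 0.69 for Col1a1, 0.18 for Col1a2, -0.19 for Col3a1 and -0.53 for Col5a2, and experiment differences of 0.26 for Col5a1, -1.05 for Col3a1, -0.71 for Col1a1 and 0.74 for Col1a2.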
